A study of Mus musculus with 14 samples.

Results

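The cells described here are DP cells whose genome coverage stood at the level of the injected B16F10 tumor line. A cell of the deposited class DP was taken where the median of all its autosomal bins lay from 2.7 to below 4.7 in the authors' scaled coverage signal. This held for 219 of 450 DP cells, among 648 cells with a DNA profile in 14 samples. The question asked of them is how their copy-number profiles differ from cell to cell, chromosome by chromosome, and whether they differ more than circulating tumor cells (CTC) of the same samples. Single cells were sorted on tumor and host markers from blood and lung, and their DNA was amplified by MALBAC. The title of the series names tumor-leukocyte hybrids as candidates. The labels neither spell out DP nor say which class the title means.

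All 9 samples with DP cells came from female C57BL/6J mice of 6 to 8 weeks, injected with fluorescently labelled B16F10 cells and given no other drug. The labels do not say whether a sample is 1 mouse, so p-values measure the spread between samples, which may share animals. The 219 cells came from 8 samples, with 26 in C1L, 6 in C1N, 15 in C1R, 34 in C2R, 67 in C3R, 36 in P1, 25 in P2 and 10 in P4. Sample C2N had none. They were blood cells in C1L, C1N, C1R, C3R and P4, lung cells in P2, and both in P1 (9 blood, 27 lung) and C2R (30 blood, 4 lung). The comparison classes were 43 CTC and 46 white blood cells (WBC) of the tumor-injected samples, 22 cells of the B16F10 culture, and 21 WBC of naive mice of the same strain, sex and age. Of the 46 WBC 2 lay in C2N, and P1, P2 and P4 had no CTC or WBC. Neither the culture nor the naive WBC has a replicate sample. The CTC lay in 5 samples, with 3 in C1L, 6 in C1N, 15 in C1R, 14 in C2R and 5 in C3R, and 15 of them were lung cells (1 in C1N, 4 in C1R, 10 in C2R), while DP cells of C1N and C1R were all from blood. The DP cells share these samples, but no pair among the 284 DP, CTC and culture profiles was identical (highest correlation 0.969).

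B16F10 is a melanoma line from C57BL/6J mice that forms metastases after injection. Its genome is aneuploid, meaning that whole chromosomes or parts of them are present in unequal copy numbers. In such a line chromosomes can be lost or gained at each division, so that sister cells come to carry different sets. A set shared by several cells can mark a subclone, but common descent of such cells was not tested here. MALBAC amplifies the genome of 1 cell nearly evenly, but some unevenness remains and adds differences between cells that are not differences in copies.

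The level rule fixed the absolute coverage of the cells, and it is given as a description. Autosomal medians of the members ran from 3.52 to 3.85 (median 3.72), whereas the nearest DP cells outside the bounds stood at 2.44 and 5.43. CTC had a median of 3.72, the culture 3.75 and naive WBC 1.83. Every level below is relative. It is the log2 signal of a bin (with a pseudocount of 0.1) after subtraction of the cell's autosomal median and of the naive WBC mean of that bin, so that the value that chose the cells is removed. A chromosome level is the median over its bins. If the common level stands for 4 copies, which the labels do not state, a change to 3 copies moves a chromosome by -0.42 and a change to 5 copies by 0.32. Read counts were not analysed here, and sequencing depth per cell is therefore unknown.

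The relative profile of the cells was that of the tumor line. A tumor score, the slope of a cell's autosomal profile on the difference between culture and naive WBC, lay between 0.663 and 1.18 in the members (median 0.961). It lay between 0.829 and 1.06 in CTC, between 0.886 and 1.11 in the culture and at or below 0.079 in WBC. Of the 219 cells 3 scored below 0.75 and 7 below 0.8, and no CTC did. Chromosome 6 stood at 0.55 ± 0.042 (SD, n = 8 samples) against 0.56 in the culture, chromosome 14 at -0.36 ± 0.027 against -0.39, and X at -1.02 ± 0.025 against -1.11. In WBC of the tumor-injected samples chromosome 6 stood at -0.0051 ± 0.024 and chromosome 14 at -0.014 ± 0.016 (n = 5 samples). No member overlapped the WBC in score or on chromosome 6, where the lowest member stood at 0.20 and the highest WBC at 0.14. On chromosome 14 single members reached -0.0073, within the WBC range of -0.14 to 0.053.

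On top of this common profile, about 1 chromosome per cell departed from the culture. A chromosome was called higher or lower where its level lay at least 0.2 from the culture mean. The members carried 1.03 such chromosomes per cell. None was called in 104 cells (47.5%), 1 in 62 cells, 2 in 26 cells, 3 in 10 cells and at least 4 in 17 cells. CTC carried 1.44 per cell and 12 of 43 had none, and the culture cells, measured against their own mean, carried 1.32 and 9 of 22 had none. WBC measured in the same way against naive WBC give the background, at 0.239 per cell with none in 40 of 46, and the naive WBC had no call.

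The number of altered chromosomes differed between samples. The sample means were 3.67 in C1N, 1.93 in C1R, 1.6 in P4, 1.31 in C1L, 0.972 in P1, 0.88 in P2, 0.676 in C2R and 0.657 in C3R, or 1.46 ± 0.998 over the 8 samples. C1N stood apart from the others, and 1 of its 6 DP cells alone carried 12 altered chromosomes. The mean without this cell was not computed. In CTC the means were 4.17 in C1N, 1.2 in both C1R and C3R, 0.857 in C2R and 0.333 in C1L, so C1N stood apart there too. In the 5 samples with both classes the DP mean minus the CTC mean was 0.0967 ± 0.710 (SD), with DP higher in 2 of 5 samples and p = 0.75 in a two-sided exact sign-flip permutation test, which cannot go below 0.0625 with 5 pairs. The difference was smaller than its spread between samples, and it turned to -0.0624 without C1R and to -0.123 without C1L. Over cells, leaving out C1N gave 0.953 altered chromosomes per DP cell and 1.0 per CTC.

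**Figure D1:**
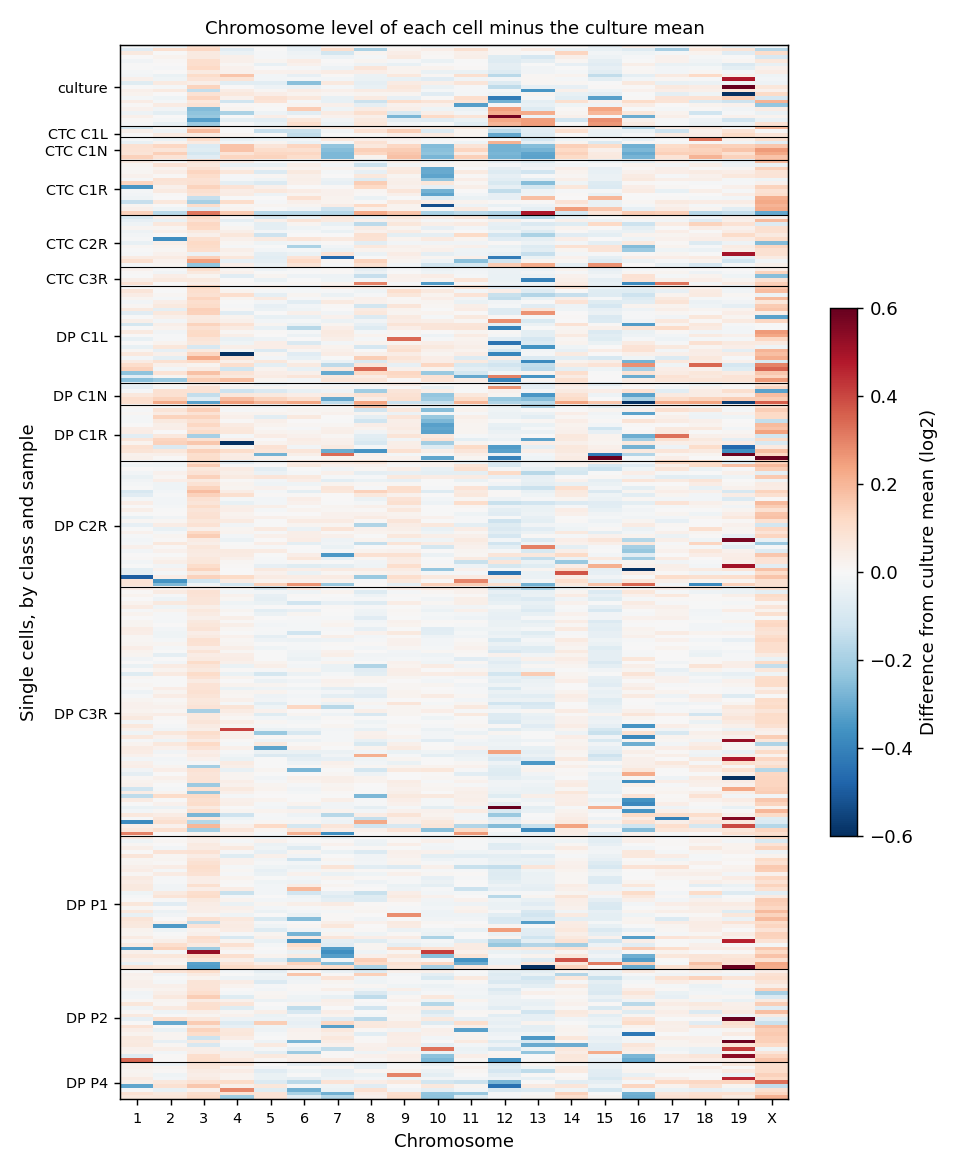
Each row is 1 cell of the culture, the CTC or the DP cells at the tumor level, grouped by sample and sorted by the number of altered chromosomes, each column is a chromosome, and the colour gives its level minus the culture mean (log2, blue lower and red higher, limited to 0.6 in either direction). The 104 of 219 DP cells with no altered chromosome are pale throughout. Blue cells on chromosome 16 occur in each of the 8 DP samples, and a blue block on chromosome 10 stands in both the DP cells and the CTC of C1R.

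Chromosome 16 was the one most often lower. It was called lower in 30 of 219 DP cells (13.7%, exact Clopper-Pearson 95% interval 9.44% to 18.98%, for counting error of cells only) and higher in 3. The lower cells had a mean level of -0.34 and came from all 8 samples. They were 4 of 26 in C1L, 2 of 6 in C1N, 4 of 15 in C1R, 3 of 34 in C2R, 8 of 67 in C3R, 4 of 36 in P1, 3 of 25 in P2 and 2 of 10 in P4. The other cells stayed close to 0, and the median cell of a sample lay between -0.097 (C1N) and 0.012 (C3R), so that a minority of cells in every sample made the difference. The lowest cell reached -0.91 in C2R and -0.68 in C1N, below the step of 1 copy in 4. Of the 30 cells, 12 had no other altered chromosome, and these lay in 6 samples.

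Lower chromosome 16 was also seen in CTC, in 7 of 43 (16.3%), and in 1 of 22 culture cells and 1 of 46 WBC. Of the 7 CTC, 4 were from C1N, and without that sample the share was 28 of 213 DP cells (13.1%) and 3 of 37 CTC (8.11%). Over the 5 shared samples the share of lower cells was 19.2% ± 10.4 in DP cells and 20.2% ± 27.4 in CTC (SD), and the exact sign-flip p was 1. The mean level of chromosome 16 was -0.071 ± 0.065 in DP cells and -0.069 ± 0.080 in CTC, with a difference of -0.0024 ± 0.052 and an exact sign-flip p of 1. The count depends on the limit: with 0.3 in place of 0.2 it was 16 of 219 cells.

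Chromosome 10 was lower in 19 of 219 DP cells (8.68%, interval 5.30% to 13.2%), with a mean level of -0.27, and unlike chromosome 16 it was concentrated in certain samples. C1R held 8 of its 15 DP cells and 7 of its 15 CTC in this state. C1N held 2 of 6 DP cells and 4 of 6 CTC, whereas the other 6 samples held 1 or 2 DP cells each. The levels of the C1R cells ran from -0.35 to 0.066 (median -0.22) in DP and from -0.55 to 0.047 (median -0.21) in CTC, so the classes overlapped over nearly their whole range. In the 8 windows of chromosome 10 from its start to 96503235 (mm10, counted from 1), the C1R means ran from -0.19 to -0.064 in DP cells and from -0.21 to -0.11 in CTC. The same windows stood between -0.024 and 0.099 in the culture and between -0.021 and 0.075 in C1R WBC. The last 3 windows, from 96503236 to 130694993, were low in the culture as well (-0.40 to -0.37), so the C1R cells departed from the culture along the rest of the chromosome. In C1R, chromosome 10 was the single altered chromosome in 5 DP cells and in 6 CTC, and no cell of another sample had this pattern.

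The DP mean of chromosome 10 was -0.065 ± 0.071 and the CTC mean -0.10 ± 0.086, and the difference of 0.036 ± 0.032 was above 0 in 5 of 5 samples (exact sign-flip p = 0.0625, the smallest that 5 pairs allow, adjusted over 20 chromosomes 0.625). The culture had 0 of 22 cells with a lower chromosome 10, which allows a share of up to 13.6%. The depth of the shift was modest. With a limit of 0.3 only 4 of the 19 DP cells were called.

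C1N held a second shared state. In 4 of its 6 CTC, chromosomes 7, 10, 12, 13 and 16 were all called lower, and no other CTC, no DP cell and no culture cell had all 5. In its DP cells 2 of 6 had at least 3 of these chromosomes lower, and 1 of 6 had both 10 and 16 lower. Among all members 7 cells in 5 samples had at least 3 of the 5 chromosomes lower. Chromosomes 10 and 16 were lower together in 9 DP cells of 6 samples, which is 47.4% of the cells with a lower chromosome 10 and 30.0% of those with a lower chromosome 16. Chromosomes 13 and 16 were lower together in 6 cells of 5 samples. The set of 5 and these pairs were picked after the calls were seen, and no test was made of them.

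**Figure D2:**
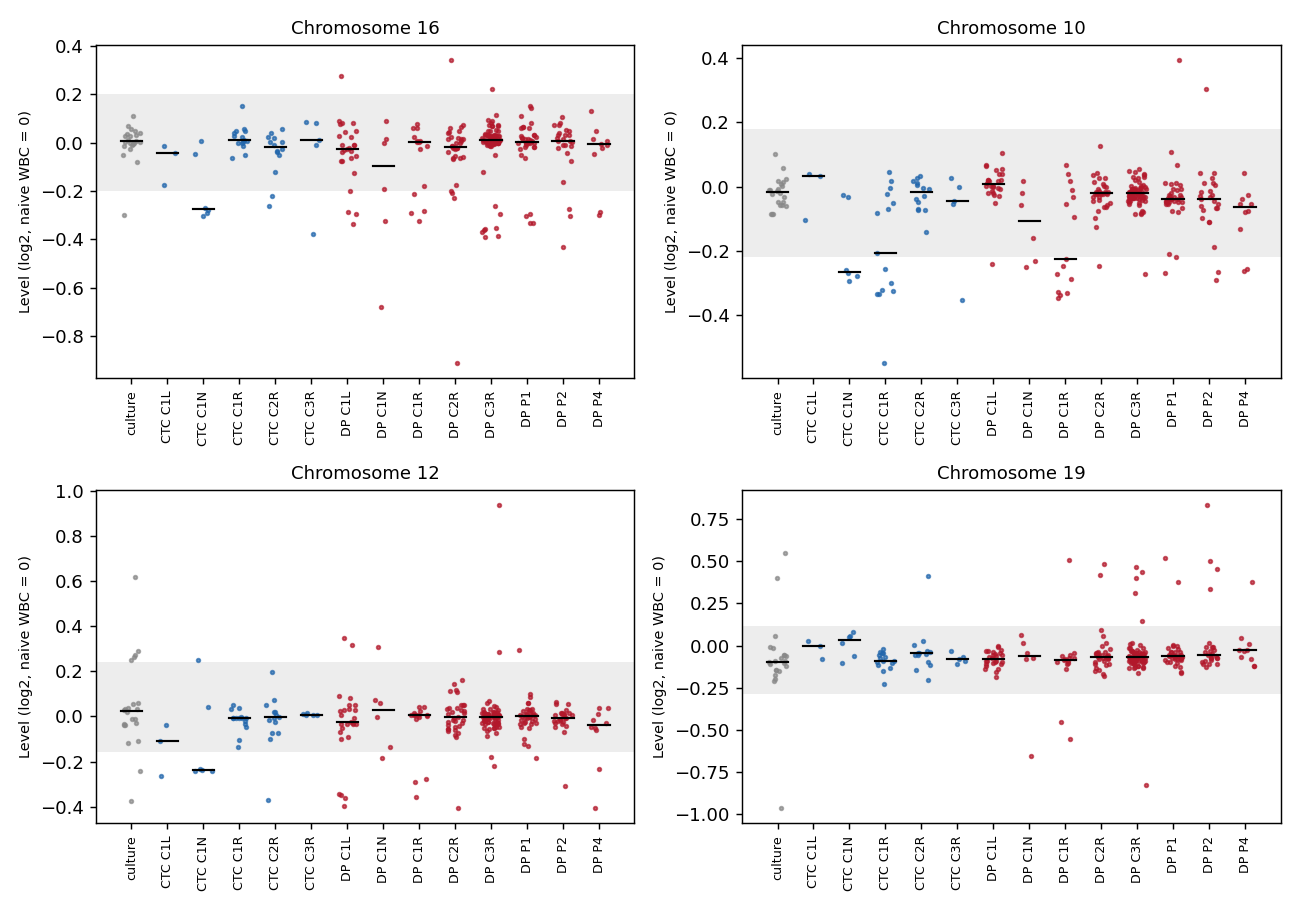
Points are the levels of single cells (log2, naive WBC at 0) on chromosomes 16, 10, 12 and 19, for the culture (grey), CTC (blue) and DP cells (red) by sample, black lines are sample medians, and the grey band spans 0.2 to either side of the culture mean. On chromosome 16 the DP medians stay in the band in all 8 samples with 2 to 8 cells below it in each, and on chromosome 10 the medians of C1R (-0.22 and -0.21) lie at its lower edge in both classes.

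Chromosome 19 was the autosome most often higher. It was called higher in 15 of 219 DP cells (6.85%, interval 3.88% to 11.0%) and lower in 4. The higher cells had a mean level of 0.44, above the step from 4 to 5 copies, and the highest reached 0.83 in P2. They were 1 of 15 in C1R, 2 of 34 in C2R, 5 of 67 in C3R, 2 of 36 in P1, 4 of 25 in P2 and 1 of 10 in P4, with none in C1L and C1N. In 6 cells of 4 samples it was the only altered chromosome. CTC had 1 of 43 higher cells (2.33%) and the culture 2 of 22 (9.09%). The share of higher cells in the 5 shared samples was 4.0% ± 3.70 (SD) for DP and 1.43% ± 3.19 for CTC (exact sign-flip p = 0.5), so a difference was not detectable in these samples. The count moved little with the limit, to 14 cells at 0.3 and 16 at 0.15.

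Chromosome 12 changed in both directions, lower in 15 DP cells of 8 samples (6.85%, mean level -0.30) and higher in 6 cells of 4 samples (2.74%, mean level 0.42). One C3R cell reached 0.94. C1L held 4 of the lower and 2 of the higher cells among its 26, the widest range of a sample with at least 15 cells other than C3R, from -0.40 to 0.35. In CTC 6 of 43 were lower, 4 of them in C1N, and 1 was higher. In the culture 5 of 22 cells (22.7%) were higher and 2 lower, so the uninjected line varied there as well in the 1 sample of it.

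Chromosome 13 was lower in 14 DP cells of 7 samples (6.39%, mean level -0.35), 3 each in C1L and P2, 2 each in C1N, C3R and P1, and 1 each in C1R and C2R. Chromosome 7 was lower in 12 DP cells (5.48%, mean level -0.33), with 4 in P1, 2 in C2R and 1 in each of the other 6 samples. In CTC the corresponding counts were 6 and 5 of 43, of which C1N held 4 each. Without C1N chromosome 13 was lower in 12 of 213 DP cells (5.63%) and 2 of 37 CTC (5.41%), and chromosome 7 in 11 DP cells (5.16%) and 1 CTC (2.703%).

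Chromosome 3 is gained in the line, and 9 DP cells (4.11%) were lower, with a mean level of -0.045, close to the -0.0026 of WBC. They were 5 of 67 in C3R, 3 of 36 in P1 and 1 of 6 in C1N. The culture had 5 of 22 cells (22.7%) in this state, at a mean of -0.041, which pulled its mean down to 0.21 while its median cell stood at 0.29. The median DP cell stood at 0.29 as well. Chromosome 6, the most gained one, was lower in 8 DP cells (3.65%, mean level 0.29), 4 of them in P1, 2 in P2 and 1 each in C3R and P4. P1, P2 and P4 had no CTC. In the samples shared with CTC 1 DP cell and 0 of 43 CTC were lower (exact interval for CTC up to 8.22%). In the culture 1 of 22 cells was lower. Chromosome 8 was lower in DP cells than in CTC in 5 of 5 samples, at -0.090 ± 0.028 against -0.051 ± 0.027. The difference of -0.040 ± 0.020 had an exact sign-flip p of 0.0625, and 0.625 after adjustment over the 20 chromosomes. On each of the 18 chromosomes other than 8 and 10 the unadjusted exact sign-flip p for the level was at least 0.25.

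**Figure D3:**
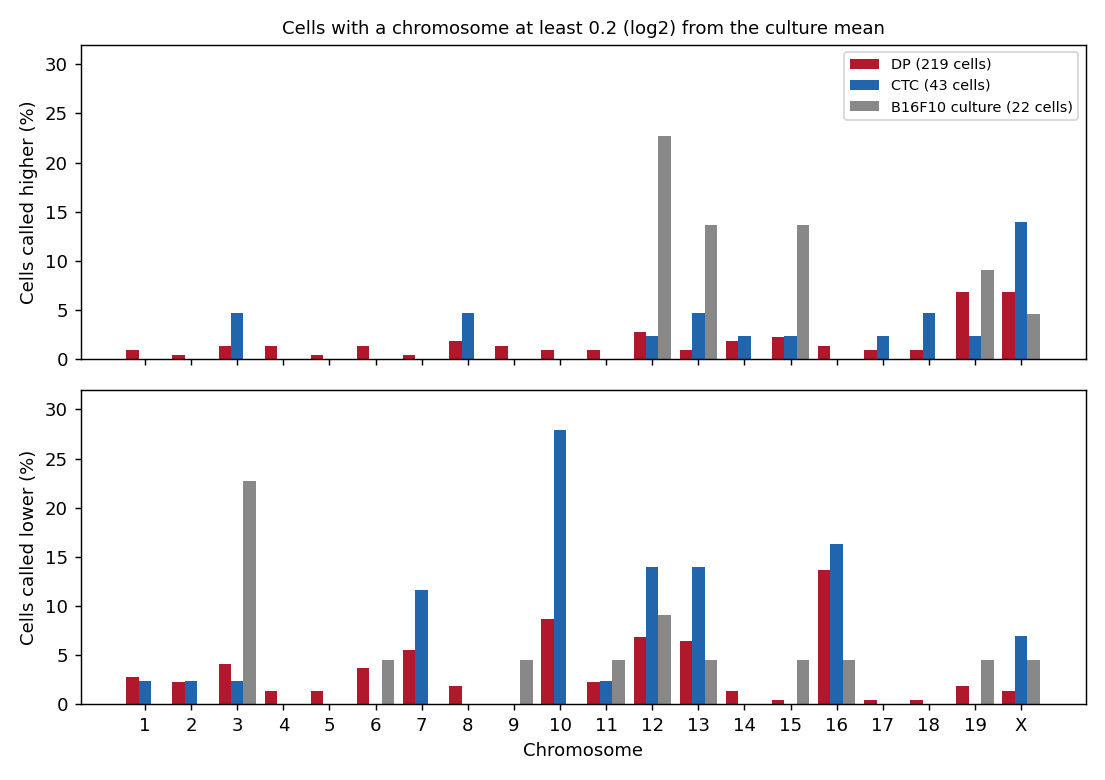
Bars give the percentage of DP cells (red), CTC (blue) and culture cells (grey) in which a chromosome lay at least 0.2 above (upper panel) or below (lower panel) the culture mean. Among the DP bars the highest are chromosomes 19 and X above (6.85% each) and chromosome 16 below (13.7%), and the CTC bar for lower chromosome 10 (27.9%) comes from 3 samples.

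At the resolution of single bins, about 538 kb wide, DP cells and CTC did not separate. With limma on class means of the 5 shared samples, blocked by sample, 0% of 4376 bins passed a Benjamini-Hochberg adjusted p of 5% in either direction. The smallest adjusted p in limma was 0.0690, and 302 bins (6.90%) had an unadjusted p below 0.05. Of these, 55 lay on chromosome 8, all lower in DP cells, 31 on chromosome 10, all higher, and 31 on X, of which 30 were higher. Chromosome 9 held 23, of which 20 were lower, and chromosome 19 held 16 of its 106 bins (15.1%), all lower in DP cells. The mean level of chromosome 19 was lower in DP cells than in CTC in 4 of 5 samples, by -0.038 ± 0.063 (exact sign-flip p = 0.3125). In these samples the share of cells called higher was 4.0% ± 3.70 (SD) in DP cells and 1.43% ± 3.19 in CTC. The share called lower was 6.30% ± 8.05 in DP cells and 0% in CTC.

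The spread between cells was then measured directly, as the mean absolute difference between 2 cells of one class in one sample. Averaged over 20 chromosomes it was 0.086 in C1L, 0.15 in C1N, 0.10 in C1R, 0.073 in C2R and 0.058 in C3R for DP cells. For CTC it was 0.075, 0.11, 0.082, 0.081 and 0.072 in the same order, and for WBC 0.082, 0.067, 0.046, 0.035 and 0.030. The DP values were thus above those of WBC in each sample, and above those of CTC in C1L, C1N and C1R but not in C2R and C3R. DP cells averaged 0.094 ± 0.036, CTC 0.083 ± 0.014 and WBC 0.052 ± 0.022 (SD, n = 5 samples). DP cells exceeded WBC by 0.042 ± 0.031 in 5 of 5 samples (exact sign-flip p = 0.0625, the smallest possible). Against CTC the excess was 0.011 ± 0.023, in 3 of 5 samples (exact sign-flip p = 0.4375). Samples P1, P2 and P4, which had no CTC or WBC, gave 0.075, 0.077 and 0.091, and the culture gave 0.092.

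The unevenness of the libraries is given beside these values. The median absolute difference of neighbouring bins, in the sample medians, ran from 0.0964 (C2R) to 0.164 (P2) in DP cells and from 0.0967 to 0.129 in CTC. In WBC of the 5 shared samples it ran from 0.105 to 0.149. In C1N, C1R, C2R and C3R it was lower in DP cells than in WBC, and in C1L it was higher (0.127 against 0.105). With only cells below the median noise of their class, windows wider than in WBC, described next, rose from 74 to 101 of 220. The median ratio over all windows tested rose from 1.54 to 2.14. This setting also lost C1L, whose noisiest WBC (0.122) lay above the class median (0.121), which left fewer than 3 WBC. Leaving out C1L alone also raised the count of windows, as given below. The part of the lower noise was not tested.

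Spread was compared with WBC in 220 windows of about 20 bins each (median width 11.5 Mb). In limma on log2 spread with the sample as a block, 33.6% of the windows (74 of 220) were wider in DP cells at an adjusted p of 5%, and 0% were narrower. The smallest adjusted p in limma was 0.000716, 108 windows had an unadjusted p below 0.05, and the median window was 1.54 times as wide in DP cells. The count ran from 44 to 118 windows when 1 sample was left out, being 44 without C1N or without C2R and 118 without C1L. Against CTC 0% of the windows differed in limma, with 17 at an unadjusted p below 0.05, a smallest adjusted p of 0.148 and a median ratio of 1.12. Samples were not weighted by cell number, and the log2 of a spread tends to be lower where it rests on few cells. In C1L, 26 DP cells stood against 3 CTC and 3 WBC. The part of this in both median ratios was not tested. The comparisons with WBC and with CTC share the same DP cells.

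The wider windows were unevenly placed. Every window was wider on chromosomes 12 (10 of 10), 13 (10 of 10), 16 (8 of 8) and 19 (5 of 5), where the median ratios were 2.23, 2.31, 2.49 and 2.17. Outside these 4 chromosomes 41 of 187 windows (21.9%) passed. Chromosomes 1 (10 of 16) and 3 (8 of 13) came next, and no window passed on chromosomes 6, 17 and 18, although of their 28 windows 4 passed without C1L, 5 in low-noise cells and 2 with a pseudocount of 0.5. The 4 chromosomes were named after their counts were seen. When single samples were left out, 28 to 33 of their 33 windows and 15 to 85 of the other 187 passed.

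Of the 10 windows with the largest excess over WBC, 6 lay on chromosome 16, within 14333104 and 98207768, 2 on chromosome 12 and 2 on chromosome 19. The last window of chromosome 16, from 86501864 to 98207768, had a spread of 0.20 ± 0.074 among DP cells, of 0.15 ± 0.056 among CTC and of 0.058 ± 0.027 among WBC (SD, n = 5 samples). Its log2 ratio to WBC was 1.86 (SE 0.27, adjusted p = 0.000716 in limma), and 28 DP cells of 8 samples stood at least 0.3 below the culture there. On chromosome 12 the window from 15083176 to 25968884 was at least 0.3 below the culture in 47 DP cells (21.5%) of 7 samples and in 11 of 43 CTC (25.6%). Its log2 ratio of spread was 1.26 (SE 0.27, adjusted p = 0.0050 in limma). The other chromosome 12 window, from 49430797 to 61414626, had a log2 ratio of 1.504 with few called cells, 8 lower and 3 higher. On chromosome 19 the window from 26552804 to 38351598 was higher in 16 DP cells and lower in 4, and its ratio was 1.34 (SE 0.32, adjusted p = 0.0064 in limma).

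**Figure D4:**
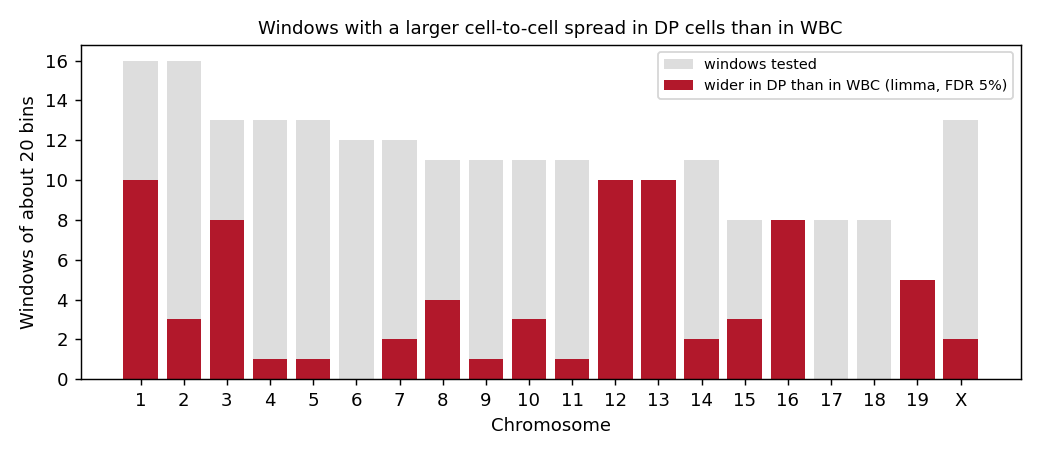
Grey bars give the number of windows of about 20 bins on each chromosome, and red bars those with a larger cell-to-cell spread in DP cells than in WBC of the same 5 samples (limma, FDR 5%). The red bars fill the grey ones on chromosomes 12, 13, 16 and 19, and are absent on 6, 17 and 18 with all 5 samples and the settings of the text.

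**Figure D5:**
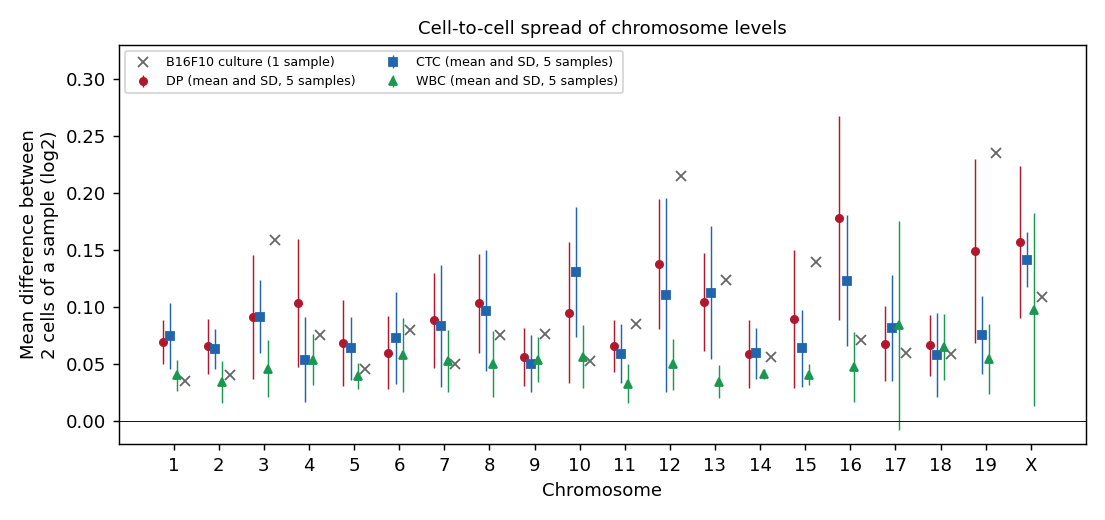
Symbols are the mean absolute difference between 2 cells of a sample in the level of each chromosome (log2), as mean and SD over 5 samples for DP cells, CTC and WBC, and as 1 value for the culture. DP cells lie above WBC on chromosome 16 (0.18 against 0.048) and the error bars of DP cells and CTC overlap on every chromosome.

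By chromosome, DP cells were more spread than WBC in 5 of 5 samples on chromosomes 1, 2, 4, 5, 7, 11, 12, 13, 15 and 16. Each of these 10 had an exact sign-flip p of 0.0625, the smallest possible, and 0.125 after adjustment over 20. Chromosome 16 had the largest excess, 0.18 ± 0.089 against 0.048 ± 0.031. Chromosome 19 followed with 0.15 ± 0.081 against 0.055 ± 0.031, in 4 of 5 samples, and then chromosome 12 with 0.14 ± 0.057 against 0.050 ± 0.023. Against CTC, chromosome 4 was more spread in DP cells in 5 of 5 samples (0.10 ± 0.056 against 0.054 ± 0.037, exact sign-flip p = 0.0625, adjusted 1), and 3 DP cells of 3 samples had it lower at a mean level of -0.66. The culture, as 1 sample, exceeded the DP mean on chromosomes 3 (0.16 against 0.091), 12 (0.21 against 0.14), 15 (0.14 against 0.090) and 19 (0.24 against 0.15), and by smaller amounts on chromosomes 6, 9, 11 and 13. It lay below the DP mean on chromosome 16 (0.071 against 0.18).

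The sample means of the members differed most on chromosome 10, with an SD of 0.057 over 8 samples, the lowest mean in C1R (-0.16) and the highest in C1L (0.0049). Chromosomes 16 (0.054) and 19 (0.052) followed. These means rest on 6 to 67 cells each, so the spread of single cells enters the spread between samples.

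Changes smaller than a chromosome were counted as runs of at least 2 windows at least 0.3 from the culture, on a chromosome not itself called in that direction. The members had 85 such runs in 64 cells (29.2%), 50 higher and 35 lower, with a median length of 24.8 Mb. CTC had 21 runs in 13 of 43 cells (30.2%), the culture had runs in 7 of 22 and WBC in 6 of 46 (13.04%). X held 28 of the 85 runs of the members and 1 of the 21 runs of CTC. The shares of cells with a run therefore do not compare the autosomes of the classes. On the autosomes the most frequent was a higher stretch of chromosome 8, in 9 DP cells of 5 samples, all including the window from 98154967 to 108911891 (mean difference 0.47). CTC carried higher runs on chromosome 8 in 6 of 43 cells of 3 samples, and the culture in 4 of 22. Chromosome 1 had a lower run in 8 DP cells of 6 samples, most often from 69087217 to 79818006, and chromosome 13 in 7 cells of 5 samples, most often from 51451486 to 61980097. No member had a run on chromosomes 6, 15, 17 and 18.

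X held the most runs, with 26 DP cells of 6 samples higher over a part of it. The deepest deficit of the line is on the distal part of X, after 109216700, where the culture stood at -1.83 and DP cells ranged from -2.40 to -0.79 (median -1.65). There 30 of 219 DP cells (13.7%) lay at least 0.3 above the culture, 10 of 36 in P1, 6 of 10 in P4, 5 of 67 in C3R, 4 of 26 in C1L, 2 of 15 in C1R, 2 of 25 in P2, 1 of 6 in C1N and 0 of 34 in C2R. No CTC did (0 of 43, exact interval up to 8.22%), although the highest CTC, at -1.54, came close to the limit. P1 and P4 had no CTC. In the 5 shared samples distal X stood at -1.67 ± 0.071 in DP cells and -1.71 ± 0.078 in CTC, a difference of 0.048 ± 0.050 that was above 0 in 4 of 5 samples (exact sign-flip p = 0.125). The 30 cells had a median noise of 0.170 and a median score of 0.922, against 0.130 and 0.966 in the other 189, and they carried 1.97 altered chromosomes against 0.878. X is among the chromosomes counted, so the choice of cells by X can itself raise their count. The part of the noise in the X values was not tested. Whole-X calls moved with the processing. X was higher in 15 DP cells (6.85%), in 32 with all bins kept and in 6 with a pseudocount of 0.5. CTC had 6 of 43 cells with a higher X (13.95%).

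The most altered member was a blood cell of C1N with 12 altered chromosomes, 9 higher and 3 lower, a score of 0.778 and a low noise of 0.0904. Since levels are relative to the autosomal median of the cell, several higher chromosomes can also reflect a shift of that median, and its part was not tested. The next were a lung cell of P1 with 6 (2 higher, 4 lower) and a lung cell of C2R with 6 (2 higher, 4 lower).

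Lung and blood could be set side by side in 2 samples, which gives no test. In P1 the 27 lung cells had 1.11 altered chromosomes and a spread of 0.080, and the 9 blood cells 0.556 and 0.0615. In C2R the 4 lung cells had 2.5 and 0.12, and the 30 blood cells 0.433 and 0.066. The lung value was higher in both samples for both measures, with 4 to 30 cells behind each value. The noise of the lung cells was also higher, at 0.149 against 0.139 in P1 and 0.129 against 0.0944 in C2R, and its part was not tested.

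Genes of melanocyte, growth and cell cycle lists were placed on the profile by the 5 bins nearest to their midpoint in GRCm38.p6 (mm10), so a gene's value is that of a stretch of a few megabases and not of the gene alone. All 48 genes matched. In the melanocyte lineage list (12 genes) the median spread among DP cells was 0.15, against 0.14 for all 867 stretches of 5 bins. It was 0.13 for growth signalling (16 genes) and 0.13 for cell cycle and tumor suppressors (20 genes). No list thus stood apart by its median. The counts of cells called at single genes, given below, have no share over all stretches beside them. The gene values below are means over 8 samples for DP cells and over 5 for CTC and WBC. P1, P2 and P4 enter only the DP values, so the classes are not matched by sample there. The lists were chosen with earlier results of these data known.

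Among melanocyte genes the largest spread was at Mlana, an antigen of melanocytes on chromosome 19 (29697541 to 29708447), at 0.23 ± 0.091 (SD, n = 8 samples) against 0.15 ± 0.026 in CTC and 0.072 ± 0.021 in WBC. DP cells ranged from -0.96 in C1R to 1.36 in P2, with a median of 0.063. Of them 24 stood at least 0.3 above the culture mean and 3 below it. The culture cells also varied there, with an SD of 0.29 among the cells of its 1 sample, so this variation was not particular to DP cells. Tyr, the tyrosinase that starts melanin synthesis (chromosome 7, 87424771 to 87493512), varied in both directions with a spread of 0.21 ± 0.037, 18 cells higher in 6 samples and 14 lower in 8. Its CTC spread was 0.14 ± 0.069, with 2 higher and 4 lower, and its WBC spread was 0.15 ± 0.067. Tyrp1, a melanosomal enzyme on chromosome 4 (80834123 to 80851736), was higher in 25 DP cells (11.4%) and 5 CTC (11.6%), and had a spread of 0.18 ± 0.053. The WBC spread there was 0.14 ± 0.058, so this stretch, like that of Tyr, also varied among host cells.

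Dct, the dopachrome tautomerase on chromosome 14 (118012790 to 118052246), kept the low level of the line at -0.40 ± 0.044, with 4 cells higher and 6 lower. Oca2, a melanosomal membrane protein on chromosome 7 (56239593 to 56536518), was lower in 12 cells of 5 samples and higher in 1. Pmel, which forms the fibrils of melanosomes (chromosome 10, 128695888 to 128720238), was the 1 gene named for its share of cells alone. It lay at least 0.3 above the culture in 35 DP cells (15.98%) of 8 samples and in 5 CTC (11.6%). Its level was -0.22 ± 0.055 in DP cells and -0.25 ± 0.013 in CTC, against -0.43 in the 1 culture sample (SD among its cells 0.13). WBC of the same samples stood at 0.074 ± 0.053 there, above the naive WBC at 0.

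For the growth genes, the 5 with the largest spread were Nras (chromosome 3), a small GTPase of the MAP kinase pathway, at 0.14 ± 0.046, Hras (chromosome 7), a related GTPase, at 0.14 ± 0.041, Igf1r (chromosome 7), a growth factor receptor, at 0.14 ± 0.037, Myc (chromosome 15), a transcription factor of cell growth, at 0.14 ± 0.051, and Akt1 (chromosome 12), a survival kinase, at 0.14 ± 0.021. Nras was higher in 5 and lower in 5 DP cells. Igf1r was lower in 11 and Hras in 9, each higher in 1. Myc was higher in 8 and lower in 1, and Akt1 higher in 3 and lower in 9. In CTC Akt1 was lower in 4 of 43 and higher in 1. Even the largest of these spreads, 0.1423 at Nras, lay below the median of 0.1429 over all 867 stretches. The CTC spread was 0.18 at Akt1, above the DP value, and 0.10 to 0.13 at the other genes, below it. WBC spreads ran from 0.0875 at Myc to 0.1079 at Nras.

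Among the cell cycle genes and tumor suppressors, Cdkn2a and Cdkn2b, inhibitors of cyclin-dependent kinases on chromosome 4, share the same 5 bins. The level of this stretch was 0.066 ± 0.037 for DP, 0.057 ± 0.043 for CTC and 0.059 ± 0.046 for WBC, with 19 DP cells higher than the culture and 2 lower. Ccne1, the cyclin of S phase entry (chromosome 7, 38097984 to 38107490), was lower in 23 DP cells (10.5%) of 7 samples and higher in 1, and lower in 7 CTC (16.3%). Its level was -0.070 ± 0.028 in DP cells and -0.084 ± 0.039 in WBC, so the DP mean did not stand below that of host cells. Nf1, an inhibitor of RAS on chromosome 11, had a spread of 0.15 ± 0.041 in DP cells and 0.22 ± 0.075 in CTC, and was higher in 14 DP cells and 6 CTC.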

How the data were processed

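Single-cell DNA libraries were profiled as 648 cells over 4880 genome bins. The authors deposited a normalised, scaled coverage signal per bin and cell, on mm10 per the submitters' processing notes, which name BWA, HISAT2, SAMtools, Picard, featureCounts and Trim Galore for the series. The scaling, and a ceiling at exactly 10, are not described in the sources used here. Cell class, tissue and sample came from the deposited cell table.

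Bins that stood at exactly 10 in 1% of cells or more were dropped, leaving 4120 of 4424 autosomal and 256 of 290 X bins, and the 166 Y bins were not used. Profiles are log2(signal + 0.1) minus the cell's autosomal median and the naive WBC bin mean. Classes were paired within a sample holding 3 or more cells of each, by their common batch label (same-sample correlation of DP and CTC deviations over chromosomes 0.40 to 0.80 in 5 pairs, highest with the own sample in 4 of 5 and not in C3R). Tests were two-sided exact sign-flip permutation tests over samples and limma (lmFit, eBayes) blocked by sample, with Benjamini-Hochberg adjustment over all bins or windows. Shares carry exact Clopper-Pearson 95% intervals, and beside a count of 0 stands the upper bound of that interval. The intervals cover counting error of cells only.

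Named were the 5 genes per list with the largest DP spread, up to 10 more at least 0.3 from the culture in at least 10% of cells, and the 10 windows with the largest spread excess over WBC past the test. The result of 1 gene that this rule names is not reported here. The members, lists and rules were chosen with earlier results of these data known. Alternatives changed the bins kept, pseudocount, noise, cell minimum, level bounds, score, tissue, window size, call limit, call reference, block and samples. The fits were checked on simulated data. Fits ran in limma 3.58.1 under R 4.3.3. Other steps used Python 3.11.15 with scipy 1.17.1, pandas 2.3.3 and numpy 2.4.6, and plots matplotlib 3.10.9.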

Additional observations from a re-analysis of the deposited data

Results flagged for a closer look

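Sample C1N stood outside the range of the other samples in several measures, by Dixon's criterion at 95% for groups of 4 to 10 samples. This criterion was applied to 44 sets of sample means and marked 11, all of them C1N. The 44 sets reuse the same cells and are not independent, so the count cannot be set against a chance rate. The DP means of C1N also rest on the fewest cells of any sample with members. Among DP cells C1N had the most altered chromosomes per cell (3.667) and the largest mean spread (0.1526). Its DP means stood apart on chromosomes 3 (0.16), 5 (0.0215), 13 (-0.15), 14 (-0.30) and 16 (-0.18). The single C1N DP cell with 12 altered chromosomes had chromosomes 3 and 16 lower and 5 and 14 higher. Means without this cell were not computed. Among CTC, C1N had the most altered chromosomes (4.167), and its means stood apart on chromosomes 5 (0.0435), 7 (-0.18) and 18 (-0.21). It holds 6 DP cells and 6 CTC, and counts without it are given above for altered chromosomes, for chromosomes 7, 13 and 16 and for windows. Without it chromosome 10 was lower in 17 of 213 DP cells (7.98%) and 8 of 37 CTC (21.6%), chromosome 12 in 14 (6.57%) and 2 (5.41%), and X was higher in 14 (6.57%) and 4 (10.8%). The spread of DP cells minus that of WBC was then 0.031.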

How the results depend on the processing

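Bounds of 3.2 to 4.2 and a score above 0.5 kept the same 219 cells. The 0 bins that differed from CTC became 2 (limma, both lower in DP cells) in cells below the median noise of their class, and 0 stayed at 0 in the other 12 settings. That noise setting did not include C1L, where fewer than 3 CTC and fewer than 3 WBC remained. The 0 windows of spread against CTC became 1 without C1N and stayed 0 in 13 other settings, so that leaving out samples gave 0 to 1. The 74 windows wider than in WBC became 115 with a pseudocount of 0.5, 118 with at least 5 cells per class, 49 of 108 with windows of 40 bins, and 44 to 118 without single samples, with none narrower. The 10 named windows, chosen among those that passed in the main setting, passed limma in each of the 12 settings run on the same windows. These settings are not independent. The bounds and the score repeat the main cells, and at least 5 cells per class is the same as leaving out C1L. The DP minus CTC difference in altered chromosomes reversed to -0.123 with at least 5 cells, to -0.0960 with a limit of 0.15 and in 2 of 5 sample leave-outs (range -0.123 to 0.257), and kept its direction in 13 settings. With no replicate block the DP minus WBC spread of 0.0422 had an exact permutation p of 0.0476 against 0.0625 with the block. Without the block the windows wider than in WBC were 57 in place of 74, and the windows and bins against CTC stayed at 0. The causes of these changes were not tested. The chromosome levels of DP minus CTC moved by more than their SD in 1 of 240 comparisons. The culture median as reference and the counts without C1N were chosen after seeing the data. The number of samples, 5 shared ones, and the unknown depth of each cell limit all comparisons.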
